A study of Arabidopsis thaliana with 72 samples.

Results

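The 26S proteasome subunits of Arabidopsis thaliana were followed through a time course of citral treatment. The set comprises 48 genes named by their locus, 23 of the core particle (12 alpha and 11 beta genes) and 25 of the regulatory particle (10 RPT and 15 RPN genes), out of 22122 loci in the deposited table. All 48 were in the table, and all 48 passed the filter on low values in both organs. RefSeq gave 39 of them a gene symbol. The remaining 9 are named here after their paralog or product, namely PAB2 (AT1G79210), PBE2 (AT3G26340), RPT4B (AT1G45000), RPT6B (AT5G20000), RPN2A (AT2G32730), RPN2B (AT1G04810), RPN7 (AT4G24820), RPN9A (AT5G45620) and RPN11 (AT5G23540).

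Seedlings aged 14 days and grown on agar under a 16 h photoperiod received 202 uM citral, a monoterpene aldehyde of lemongrass and citrus oils, 7 h after the lights came on. Citral shoots and citral roots were collected after 1, 3, 6, 12 and 24 h, seedlings given 0.1% ethanol at the same times and also at 0 h, and untreated seedlings at 0 h, with 3 libraries in each of the 24 groups. The treatment protocol in the sample labels names another compound, t-chalcone at 21 uM, whereas the title, the design and the agent label of each sample name citral. The agent labels were followed, and the conflict was not settled. Nothing states that the 3 libraries of a group came from separate plates, so the p-values measure the spread between these libraries, which may be technical.

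The 26S proteasome degrades proteins that carry ubiquitin chains. Its barrel-shaped core particle consists of outer rings of alpha subunits, which gate the entrance, and inner rings of beta subunits, some of which carry the proteolytic sites. The regulatory particle that caps it combines a ring of RPT ATPases, which unfold the substrate, with RPN subunits, which receive ubiquitin chains, remove them and hold the particle together. Many of these subunits are encoded by pairs of paralogs in Arabidopsis, and the transcription factors NAC53 and NAC78 are known there for raising proteasome gene expression when the proteasome is impaired.

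The 72 libraries held between 0.1845 M and 20.6 M recovered reads. The 30 citral libraries held 1.578 M to 3.59 M, below the median of 11.4 M in the 42 control libraries. A subunit gene had a median of 283 reads in citral shoots and 316 in citral roots, against 821 in ethanol shoots and 1169 in ethanol roots. Only 4 libraries, all ethanol controls, held under 0.5 M reads: root 0 h replicate 1, root 3 h replicate 1, shoot 12 h replicate 2 and shoot 24 h replicate 3. They stayed in the tests of single genes with the weights described under the processing, and were left out of the tests of paralog ratios, the means and the SDs. In the libraries over 0.5 M reads, RBCS1A, a small subunit of Rubisco, lay between 3170 and 12700 scaled CPM in shoots and between 15.2 and 93.4 in roots. The light-harvesting gene LHCB3 lay between 245 and 11000 in shoots and between 7.8 and 92.7 in roots. The endodermal gene CASP1 lay between 0.146 and 5.73 in shoots and between 36.5 and 183 in roots. The ranges of these genes were apart, as the organ labels say. The root hair gene COBL9 overlapped, between 0.0383 and 3.73 in shoots and between 0.151 and 34.8 in roots, with medians of 0.262 and 12.6.

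Proteasome genes rose almost as a block 3 and 6 h after citral in both organs, and most had returned towards the ethanol level by 24 h. A change is given as log2 of citral over ethanol, and a gene was called when limma's test gave an adjusted p under 0.05 after Benjamini-Hochberg adjustment over all loci tested, 19545 in shoots and 20167 in roots. In shoots 44 of 48 subunit genes rose and 0 fell at 3 h, where 23.6% of all loci were called higher and 26.7% lower. At 6 h 47 rose and 0 fell, against 21.7% higher and 19.8% lower over all loci. In roots 43 rose and 0 fell at 3 h, beside 21.4% higher and 25.9% lower over all loci, and 45 rose and 1 fell at 6 h, beside 22.9% and 25.7%. The median change of the 48 genes was 0.60 at 3 h and 1.06 at 6 h in shoots, and 0.74 and 0.80 in roots, while the median over all loci stayed between -0.11 and -0.01. A limma F test over the 5 citral times called 47 of the 48 in shoots, RPT6A being the exception, and 48 in roots, beside 74.1% and 77.5% of all loci. Of the 48 genes, 42 were called higher in both organs at 3 h and 45 at 6 h. With nearly all genes called in each organ, a large overlap was bound to arise. The share of all loci called higher in both organs was not counted. Seedlings were sampled as whole organs, so a change in the share of a cell type and a change in RNA per cell cannot be told apart.

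**Figure D1:**
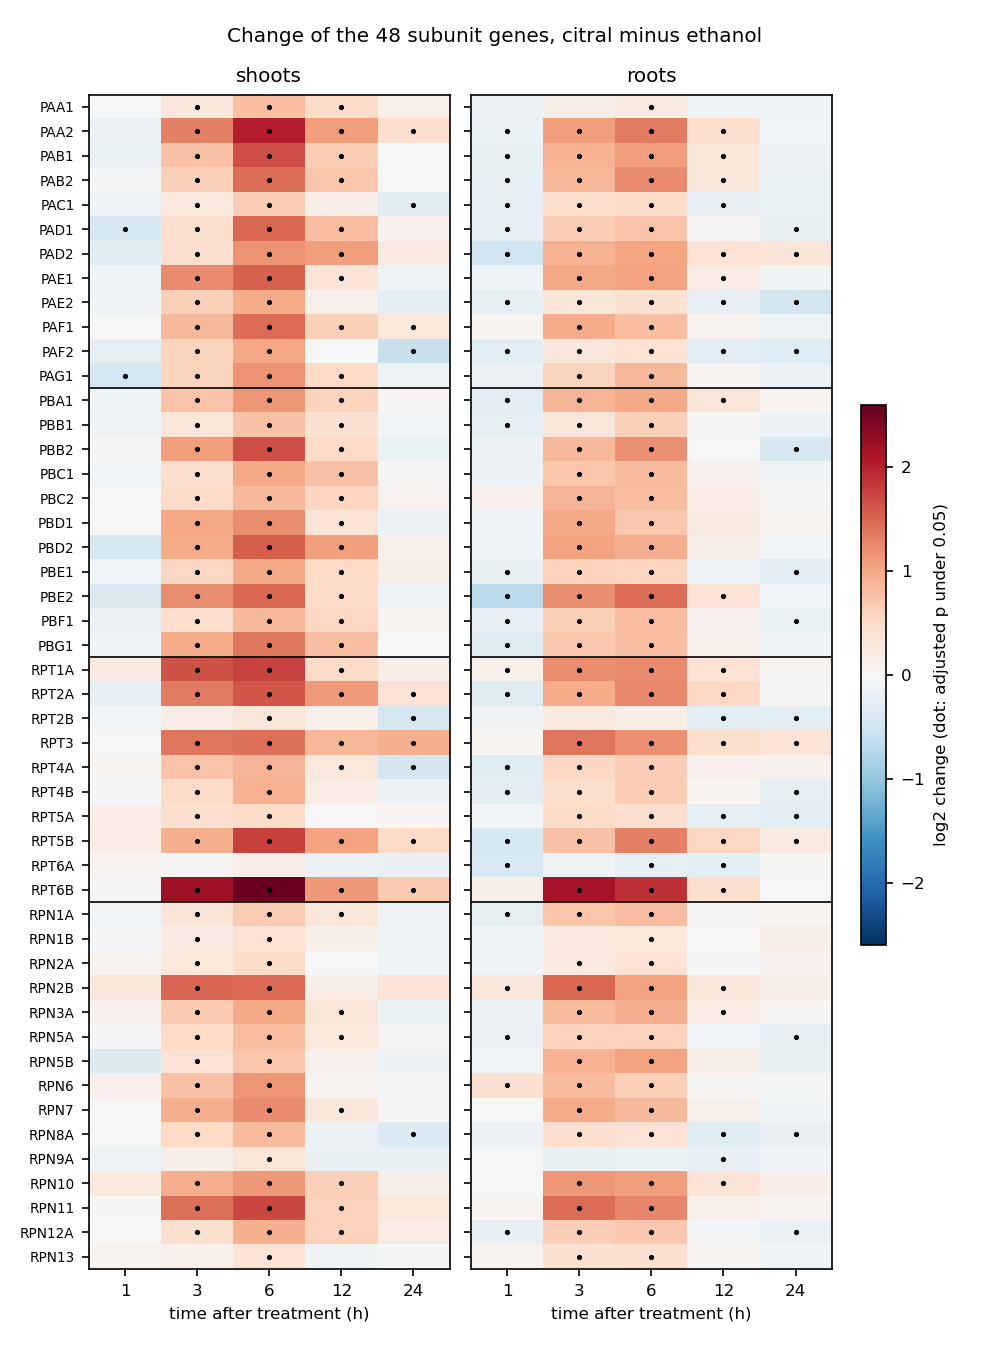
Log2 change of each of the 48 subunit genes (rows) in citral over ethanol at 1, 3, 6, 12 and 24 h (columns), in shoots and in roots; a dot marks an adjusted p under 0.05. At 6 h 47 genes rose in shoots and 45 in roots, and RPT6A is the gene that fell in roots.

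The summed level of all 48 genes shows the size of the response library by library. Levels are counts per M recovered reads (CPM) after scaling by the trimmed mean of M values (TMM), called scaled CPM. At 6 h the sum was 9644, 7819 and 7063 in citral shoots, against 3708, 3645 and 3648 in ethanol shoots. In roots it was 8089, 8123 and 8330 with citral at 6 h, against 4699, 4601 and 4761 with ethanol. Every citral library lay above every ethanol library of its organ at that time, and the citral shoots were the more spread out. At 3 h the sum was 6517 ± 322 in citral shoots (SD, n = 3), against 3846 ± 20.5 in ethanol shoots (SD, n = 3), and 8085 ± 232 in citral roots (SD, n = 3), against 4686 ± 122 in ethanol roots (SD, n = 2). By 24 h the shoot groups overlapped, with 3849, 4080 and 4546 in citral shoots and 3924, 3977 and 3689 in ethanol shoots. The root groups at 24 h did not overlap, and the citral libraries were the low ones, with 4664, 4728 and 4795 against 5061, 5042 and 5413 with ethanol.

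**Figure D2:**
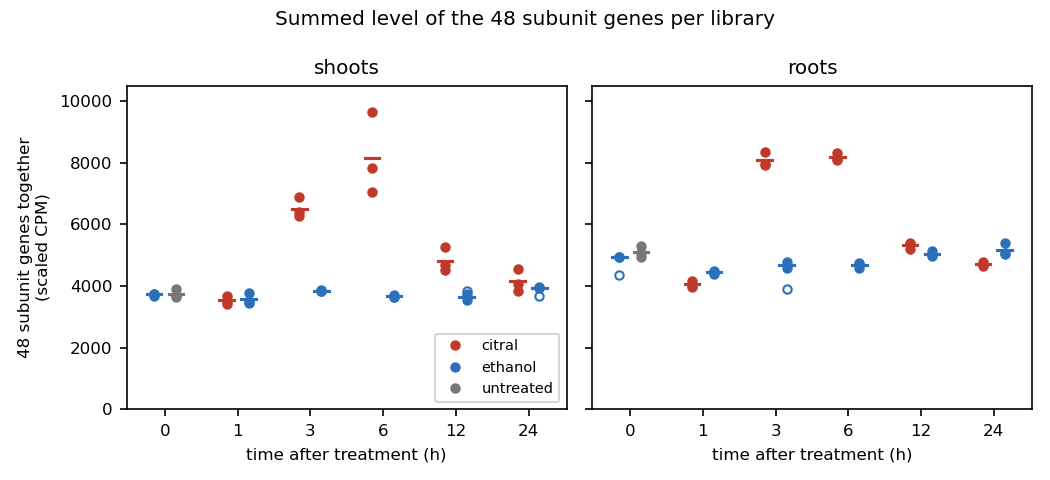
Summed level of the 48 subunit genes in each library (scaled CPM) against time after treatment, in shoots and in roots, with citral, ethanol and untreated libraries in separate colours and open circles for libraries under 0.5 M reads; short lines are means without these. The citral libraries lie apart from the ethanol libraries at 3 and 6 h, between 6266 and 9644 in shoots and between 7933 and 8352 in roots.

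The first hour looked different. In shoots 0 genes rose and 2 fell, PAD1 and PAG1, both of the alpha rings, beside 12.6% of loci higher and 7.92% lower. In roots 22 genes fell and 3 rose, beside 22.0% higher and 21.1% lower over all loci, and the summed level was 4052 ± 109 with citral (SD, n = 3), against 4451 ± 54.3 with ethanol (SD, n = 3). The 22 genes that fell comprised 14 of 23 core genes and 8 of 25 regulatory genes. The 3 that rose were all regulatory. RPN6, which clamps the regulatory particle to the core, had 141.9, 130.8 and 121.0 scaled CPM in citral roots, against 108.6, 102.7 and 98.84 in ethanol roots, a change of 0.40 (SE 0.070, limma adjusted p = 1.26e-05). RPN2B, a large scaffold subunit, had 132.3, 110.9 and 118.9 with citral, against 102.7, 99.04 and 105.7 with ethanol (0.30, SE 0.074, limma adjusted p = 0.000932). Neither gene's groups overlapped. RPT1A, an ATPase subunit, had 257.2, 246.7 and 226.2 with citral and 234.4, 228.2 and 220.1 with ethanol, and these groups overlapped (0.14, SE 0.053, limma adjusted p = 0.0311). Leaving out a library of ethanol roots at 1 h, or citral roots replicate 1, gave a root count at 1 h of 8 to 15 in place of 25. RPT1A lost its call with the authors' scaling, without library weights and with limma-trend, and RPN2B with limma-trend. RPT1A lost its call also without ethanol replicate 2 or 3 or without citral replicate 1 or 2, and RPN2B lost its call without ethanol replicate 2. Without ethanol shoots replicate 1 or citral shoots replicate 3, 0 genes were called in shoots at 1 h.

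At 12 h the response remained in shoots, with 33 genes higher and 0 lower beside 19.0% of loci higher and 19.0% lower, and a median change of 0.49. The roots gave 15 higher and 8 lower, beside 17.9% and 18.1% of loci, and a median of 0.10. At 24 h 6 genes were higher and 5 lower in shoots (16.2% and 17.2% of loci), and 3 higher and 12 lower in roots (20.1% and 18.5% of loci). RPT3 and RPT5B were higher at 24 h in both organs, RPT3 by 0.93 in shoots and 0.34 in roots and RPT5B by 0.50 and 0.24. PAF2, RPT2B and RPN8A were lower at 24 h in both organs. The shoot count at 12 h rested on the deep ethanol libraries, since 2 genes were called without ethanol replicate 1 and 3 without ethanol replicate 3, which in each case left a shallow library beside a deep one. At 24 h the 11 shoot calls became 2 without ethanol replicate 1, 1 without ethanol replicate 2, 4 without citral replicate 2 and 7 without citral replicate 3. The 15 root calls at 24 h became 7 to 9 without ethanol replicate 1 or 2 or citral replicate 1 or 2.

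The scaling bears on the shoot counts. With the authors' own scaling the median over all loci in shoots moved by -0.139 at 1 h, -0.159 at 3 h and -0.174 at 6 h, and 36 subunit genes were called higher at 3 h and 43 at 6 h, with 0 lower at both times, and 0 higher and 6 lower at 1 h. The share of higher calls among all called loci in shoots was then 35.0% at 1 h, 32.6% at 3 h and 33.5% at 6 h, against 61.4%, 47.0% and 52.3% with TMM. In roots it was 38.7% at 1 h and 39.1% at 24 h, against 51.0% and 52.1% with TMM, and the subunit genes then gave 2 higher and 32 lower at 1 h and 1 higher and 24 lower at 24 h. Without library weights the shoot count was 22 at 3 h and 17 at 12 h, and 43 and 29 once the 4 shallow libraries were also left out. With limma-trend, which weights neither libraries nor single values, 11 genes were called in shoots at 3 h and 26 at 6 h, all higher, and 42 and 47 once the shallow libraries were left out. In roots limma-trend called 44 at each of these times, 10 at 1 h, 12 at 12 h and 9 at 24 h. The share of all loci called was not counted under these alternatives, so their counts have no background beside them. PBB2 and PBG1 in shoots at 6 h lost their calls under limma-trend and were called again without the shallow libraries, and PAA2 lost its call there with 0.1 CPM added but not with 0.5 CPM.

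Few genes of the set differed between ethanol and untreated seedlings at 0 h. Untreated seedlings were collected only at 0 h, so an effect of ethanol at later times could not be tested. In shoots PAE2 was the 1 gene called, higher in ethanol than in untreated seedlings (0.275, SE 0.092, limma adjusted p = 0.0292), where 9.28% of loci were called higher and 13.1% lower. In roots 2 genes were called, RPN13 higher (0.25, SE 0.084, limma adjusted p = 0.0237) and RPT5B lower (-0.21, SE 0.075, limma adjusted p = 0.0372), beside 14.8% of loci higher and 11.3% lower. Over the 6 ethanol times a limma F test called 28 subunit genes in shoots, where it called 88.2% of all loci, and 32 in roots, where it called 67.0%. The range of the ethanol means over time had a median of 0.33 log2 units for the subunits and 0.90 for all loci in shoots, and 0.28 and 0.58 in roots. The loci were not matched to the subunits in level, so these medians do not compare genes of like level. The root count under the F test was 1 without ethanol 0 h replicate 2 and 3 without ethanol 0 h replicate 3, and the shoot count was 16 without ethanol 0 h replicate 3.

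The stretch just upstream of each gene start was read from the RefSeq TAIR10.1 genome because the core of a proteasome-related element, TGGGC, is described in Arabidopsis as a target of NAC53 and NAC78. Shown are the last 120 bases before the gene start, 5' to 3' on the gene's strand, for RPN2B (chr1:1349960-1350079, plus strand) beside RPN2A (chr2:13879839-13879958, plus), and PBE2 (chr3:9652937-9653056, minus) beside PBE1 (chr1:4452070-4452189, plus), pairs in which the paralog with matches had the larger change at 6 h. RPT2A (chr4:14312163-14312282, plus) is shown with its 3 matches, and it too rose more than its paralog at 6 h. RPT6B (chr5:6756513-6756632, plus) is shown because it had the highest change of the set at 6 h in both organs. The genes shown were thus picked for their change and do not represent the set. RPN1A, RPN1B and RPN8A each held 4 matches in this stretch, and RPN1B changed by only 0.37 in shoots and 0.27 in roots at 6 h. PAF2 and PBD1, not shown, held matches but changed less than their paralogs at 6 h in both organs. Capitals mark TGGGC or its complement GCCCA.
RPN2B: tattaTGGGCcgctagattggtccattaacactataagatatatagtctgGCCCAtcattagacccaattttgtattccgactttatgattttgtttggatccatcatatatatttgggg
RPN2A: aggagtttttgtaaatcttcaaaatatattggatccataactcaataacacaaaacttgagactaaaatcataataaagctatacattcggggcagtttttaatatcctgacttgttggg
PBE2: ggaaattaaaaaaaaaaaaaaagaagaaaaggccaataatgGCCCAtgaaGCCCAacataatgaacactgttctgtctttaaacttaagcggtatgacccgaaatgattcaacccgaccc
PBE1: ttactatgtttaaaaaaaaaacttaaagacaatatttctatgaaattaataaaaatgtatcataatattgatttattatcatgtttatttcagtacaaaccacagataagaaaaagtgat
RPT2A: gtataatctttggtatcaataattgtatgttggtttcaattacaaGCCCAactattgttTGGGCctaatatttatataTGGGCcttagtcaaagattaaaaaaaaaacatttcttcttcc
RPT6B: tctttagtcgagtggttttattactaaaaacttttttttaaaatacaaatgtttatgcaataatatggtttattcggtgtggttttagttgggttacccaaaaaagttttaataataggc

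In the 250 bases before the gene start, 22 of 48 subunit genes (45.8%) held TGGGC on either strand, against 24.7% of the 21966 windows of protein-coding loci in the table. TGGGCC, which contains TGGGC, was in 17 (35.4%), against 15.5% of all windows, and AAACCCTA in 3 (6.2%), against 3.5%. The 22 genes with TGGGC had a median change of 1.16 at 6 h in shoots and 0.88 in roots, and the 26 without it 0.97 and 0.74. At 12 h in shoots the order was the other way, with 0.38 and 0.51. Of the 7 pairs in which only the first or only the second paralog held TGGGC, the holder had the larger change at 6 h in 4 pairs in shoots and in 5 in roots. The pair that differed between the organs was RPN5, where AT5G64750, which overlaps the holder RPN5B on the opposite strand, rose by 3.50 in roots and 2.02 in shoots at 6 h, so reads of RPN5B and AT5G64750 cannot be told apart without strand information. Both paralogs held it in 3 pairs and neither in 6, among them RPT6, RPT5 and PAA. A match is a description of letters in a window. Of the 48 stretches of 120 bases next to the gene start, 16 overlapped another gene, and overlaps of the full 250 bases were not counted.

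The 12 alpha genes, whose products form the outer rings, all rose at 6 h in both organs, with median changes of 1.31 in shoots and 0.81 in roots. PAA2 led in both. It had 400.4, 333.6 and 285.3 scaled CPM in citral shoots, against 89.45, 76.19 and 79.09 in ethanol shoots, a change of 2.05 (SE 0.117, limma adjusted p = 1.04e-15). In roots it had 285.5, 298.4 and 301.3 with citral, against 123.0, 116.7 and 112.7 with ethanol (1.35, SE 0.059, limma adjusted p = 2.04e-21). The lowest citral value was far above the highest ethanol value in each organ. PAF1 had 282.7, 200.9 and 197.2 in citral shoots, against 85.65, 76.92 and 81.85 in ethanol shoots (1.46, SE 0.097, limma adjusted p = 4.78e-14). PAB1 had 159.5, 164.5 and 162.1 in citral roots, against 78.01, 75.49 and 80.29 in ethanol roots (1.08, SE 0.063, limma adjusted p = 1.98e-17). Neither pair of groups overlapped. At the low end of the alpha genes stood PAC1 in shoots, with 0.64, and PAA1 in roots, with 0.24.

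The 11 beta genes, which include the proteolytic subunits, also all rose at 3 and 6 h in both organs, and all 11 were still higher in shoots at 12 h. Their median at 6 h was 1.15 in shoots and 0.81 in roots. PBB2, whose product carries the trypsin-like site, had 162.4, 132.7 and 122.0 scaled CPM in citral shoots at 6 h, against 46.21, 39.74 and 42.92 in ethanol shoots (1.68, SE 0.100, limma adjusted p = 2.53e-15). In roots it had 134.2, 128.6 and 130.5 with citral, against 64.91, 56.75 and 55.89 with ethanol (1.20, SE 0.069, limma adjusted p = 1.39e-17). Citral and ethanol libraries were again apart in both organs. PBG1, a structural beta subunit, had 235.3, 208.9 and 168.8 in citral shoots, against 76.71, 68.72 and 80.90 in ethanol shoots (1.38, SE 0.119, limma adjusted p = 2.51e-11). The gene on the opposite strand that overlaps PBG1, AT1G56440, rose too, by 0.91 in shoots at 6 h, and without strand information the reads of such genes cannot be told apart. PBE2, which carries the chymotrypsin-like site, had 58.67, 55.91 and 57.92 in citral roots, against 23.72, 20.40 and 21.74 in ethanol roots (1.46, SE 0.098, limma adjusted p = 1.49e-15). PBA1, which carries the caspase-like site, rose by 1.15 in shoots and 0.98 in roots at 6 h.

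Among the 10 RPT genes, whose products form the ATPase ring, 9 rose in shoots at 6 h and 8 in roots, where RPT6A fell. RPT1A had 491.5, 408.6 and 438.8 scaled CPM in citral shoots at 3 h, against 148.1, 142.7 and 139.1 in ethanol shoots (1.66, SE 0.093, limma adjusted p = 2.88e-16). At 6 h in roots it had 563.5, 539.4 and 601.4 with citral, against 243.4, 243.4 and 256.0 with ethanol (1.23, SE 0.051, limma adjusted p = 7.6e-22). Per kilobase of exon it had the highest level of the 48 genes at 6 h with citral, at 244 in shoots and 286 in roots. The groups did not overlap, and AT1G53730, which overlaps RPT1A on the opposite strand, moved the other way in shoots, by -0.88 at 3 h. Apart from the RPT6 genes, the changes in shoots at 6 h ran between 0.32 for RPT2B and 1.77 for RPT5B, and RPT2B was not called in roots (0.18).

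RPT6B and RPT6A, neighbours on chromosome 5 (TAIR10.1, chr5:6756633-6759800 and chr5:6751798-6755315, both on the plus strand), parted company. At 6 h RPT6B had 280.7, 197.2 and 164.1 scaled CPM in citral shoots, against 37.79, 33.54 and 33.50 in ethanol shoots, a change of 2.56 (SE 0.153, limma adjusted p = 2.97e-15). In roots it had 199.5, 172.7 and 192.1 with citral, against 51.18, 51.65 and 49.77 with ethanol (1.90, SE 0.072, limma adjusted p = 4.43e-23). These were the highest changes of the 48 genes at 6 h. RPT6A had 89.85, 72.50 and 83.17 in citral shoots, against 77.95, 75.10 and 74.90 in ethanol shoots, and was not called (0.16, SE 0.096, limma adjusted p = 0.20). In roots it had 68.30, 76.81 and 76.52 with citral, against 90.81, 85.70 and 89.69 with ethanol, and fell by 0.23 (SE 0.067, limma adjusted p = 0.00492). Its groups overlapped in shoots and were apart in roots, and the root call was lost without citral replicate 1. RPT6A also fell in roots at 1 h (-0.39) and at 12 h (-0.29). RPT6B made up 77.5% ± 4.19 of the pair per kilobase in citral shoots at 6 h (SD, n = 3), against 38.4% ± 1.12 in ethanol shoots, and 77.5% ± 2.27 in citral roots, against 43.7% ± 1.08 in ethanol roots. The coding sequences were 94.4% identical, with a longest identical run of 104 bases, so the split of reads between the paralogs is uncertain.

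**Figure D3:**
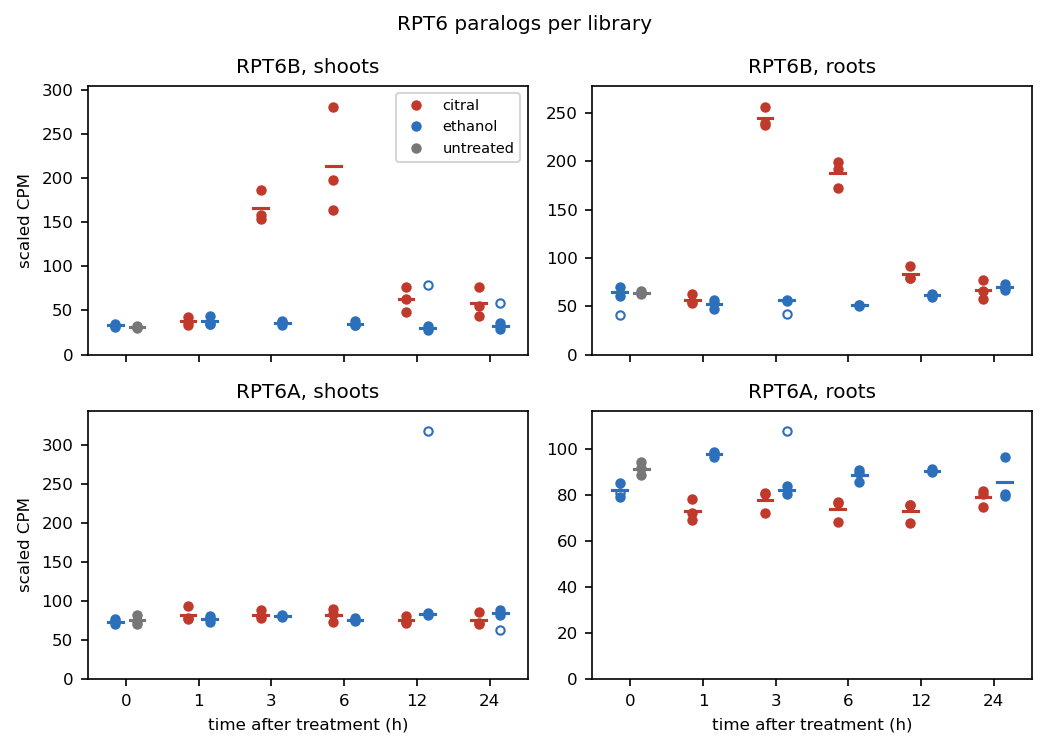
Level of RPT6A and RPT6B in each library (scaled CPM) against time after treatment in shoots and roots, with citral, ethanol and untreated libraries in separate colours and open circles for libraries under 0.5 M reads; short lines are means without these. RPT6B reached 164.1 to 280.7 in citral shoots at 6 h, against 33.5 to 37.79 in ethanol shoots, while RPT6A stayed between 72.5 and 89.85 in both.

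The 15 RPN genes rose at 6 h in all 15 cases in shoots and in 14 in roots, with median changes of 0.82 and 0.71. RPN11, the deubiquitinase that removes chains from substrates, had 263.7, 183.7 and 179.7 scaled CPM in citral shoots at 6 h, against 57.97, 60.15 and 63.39 in ethanol shoots (1.74, SE 0.106, limma adjusted p = 4.24e-15). In roots it had 227.1, 217.5 and 235.9 with citral, against 100.5, 93.22 and 96.97 with ethanol (1.27, SE 0.062, limma adjusted p = 8.37e-20). The groups were apart in both organs. RPN2B, the scaffold, was strongest at 3 h, with 222.1, 204.3 and 202.2 in citral shoots, against 71.39, 73.53 and 77.07 in ethanol shoots (1.51, SE 0.100, limma adjusted p = 1.84e-14). In roots at 3 h it had 288.7, 312.6 and 297.9 with citral, against 83.87, 107.2 and 111.8 with ethanol, the first of these from a shallow library (1.48, SE 0.098, limma adjusted p = 1.44e-15). Of the ubiquitin receptors, RPN10 rose by 1.12 in shoots and 1.08 in roots at 6 h, and RPN13 by 0.35 and 0.42. RPN9A was not called in roots at 3 or 6 h and fell there at 12 h (-0.21).

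Counted by particle, all 23 core genes and 24 of 25 regulatory genes rose in shoots at 6 h, with medians of 1.17 and 0.90, and 23 and 22 in roots, with medians of 0.81 and 0.71. At 12 h in shoots 20 core genes and 13 regulatory genes were higher, with medians of 0.54 and 0.28. The ratio of summed core to summed regulatory reads was 0.661 ± 0.020 in citral shoots at 1 h (SD, n = 3), against 0.752 ± 0.010 in ethanol shoots, and 0.66 ± 0.012 at 3 h, against 0.741 ± 0.020. At 6 h it was 0.799 ± 0.010 in citral shoots, against 0.706 ± 0.020 in ethanol shoots, and at 12 h 0.849 ± 0.030, against 0.715 ± 0.008 (n = 2). At 24 h it was 0.674 ± 0.009, against 0.692 ± 0.017 (n = 2). The mean ratio in citral shoots was thus below that in ethanol shoots at 1, 3 and 24 h and above it at 6 and 12 h. In roots it was 0.603 ± 0.014 with citral at 1 h, against 0.657 ± 0.021 with ethanol, and 0.589 ± 0.018 at 3 h, against 0.654 ± 0.012 (n = 2). It was 0.668 ± 0.004 with citral at 6 h, against 0.673 ± 0.003 with ethanol, 0.658 ± 0.012 at 12 h, against 0.672 ± 0.006, and 0.609 ± 0.011 at 24 h, against 0.691 ± 0.044. The mean with citral was below the mean with ethanol at all 5 root times, with the widest gap at 24 h. The ratio carries no test. Paralogs of the set were summed per kilobase into 32 subunits, leaving out second genes that are not in the set. At 6 h all 3 citral libraries lay above all ethanol libraries for 32 subunits in shoots and 31 in roots. The exception was RPN9A, taken without AT4G19006, a second RPN9 gene that was called higher in roots at 6 h. The share of all loci with citral and ethanol libraries apart in this way was not counted. Another gene overlapped 17 of the 48, and of the 31 that overlap none, 30 rose in shoots at 6 h, and 28 rose and 1 fell in roots.

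Some of the paralog pairs changed their ratio under citral, and others did not. For each of the 16 pairs the log2 ratio of the first to the second paralog was compared between citral and ethanol with an exact permutation test within times, two-sided, adjusted over 32 tests by the Benjamini-Hochberg method. The ratio changed in 9 pairs in shoots and 11 in roots, and in all 7 pairs that changed in both the sign was the same. RPT6A over RPT6B changed by -1.35 in shoots (adjusted permutation p = 0.000143) and -1.14 in roots (adjusted permutation p = 5e-05), averaged over the 5 times. RPT2A, the ATPase paralog with TGGGC, gained on RPT2B by 0.83 in shoots and 0.57 in roots (adjusted permutation p = 0.00015 and 0.000286). PAF1 gained on PAF2 by 0.52 in shoots and 0.38 in roots (adjusted permutation p = 3.33e-05 in each), and the shoot p of 1.25e-06 before adjustment is the smallest the permutations can give. PAF2 made up 13.7%, 17.3% and 13.6% of its pair per kilobase in citral shoots at 24 h, against 25.7%, 25.6% and, in the shallow library, 16.2% in ethanol shoots, so the groups were apart only among the deep libraries.

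RPT5A over RPT5B changed by -0.67 in shoots (adjusted permutation p = 8.67e-05) and -0.40 in roots (adjusted permutation p = 0.00186). RPT5B made up 38%, 36% and 35.5% of its pair per kilobase in citral shoots at 6 h, against 19.7%, 17.6% and 18.9% in ethanol shoots, with no overlap. PAE1 gained on PAE2 by 0.45 in roots (adjusted permutation p = 3.33e-05). There PAE2 made up 40.9%, 43.4% and 42.9% of its pair with citral at 3 h, against 53.7%, 56.2% and, in the shallow library, 51.8% with ethanol. The shallow library was not in the test. PAA2 and RPN2B also gained on their paralogs in both organs, the ratios of PAA1 over PAA2 and of RPN2A over RPN2B changing by -0.57 and -0.61 in shoots. PAB, PBD and RPT4 did not pass the test in either organ. In coding sequence the 16 pairs were between 80.7% (RPT5) and 94.4% (RPT6) identical.

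**Figure D4:**
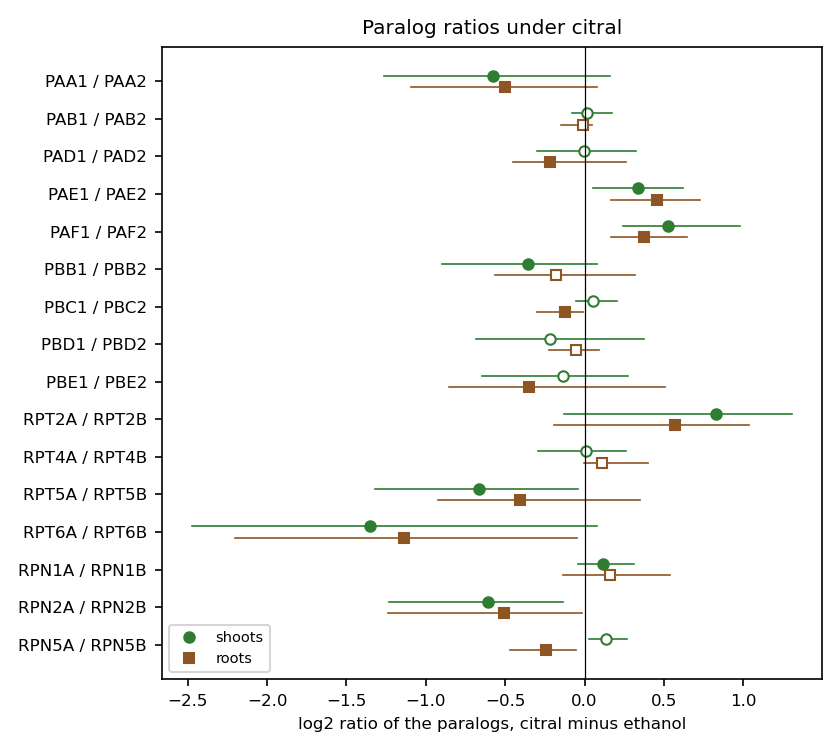
Change of the log2 ratio of the first to the second paralog, citral minus ethanol, for the 16 pairs in shoots and roots. Points are means over 5 times, lines span the 5 times, and filled points have an adjusted permutation p under 0.05; the RPT6 pair lies farthest to the left, at -1.35 in shoots and -1.14 in roots.

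Shoots and roots differed in level before any treatment and in the later part of the response. In untreated seedlings 43 of 48 subunit genes were lower in shoots than in roots and 0 were higher, where 33.3% of 21096 loci were higher and 44.8% lower, and the median of the set was -0.44 against -0.16 over all loci. RPT5B had 23.68, 30.99 and 24.73 scaled CPM in untreated shoots, against 56.61, 61.06 and 58.90 in untreated roots (-1.19, SE 0.089, limma adjusted p = 1.34e-18). RPT3 had 100.5, 89.91 and 81.75 in untreated shoots, against 182.6, 192.4 and 186.4 in untreated roots (-1.05, SE 0.083, limma adjusted p = 1.06e-17). Both genes had separate groups. Without library weights 27 genes were called lower, and with limma-trend 15. Once the shallow libraries were also left out the counts were 34 and 33.

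The difference between the organs' citral responses, shoot minus root, was tested in a fit of all 72 libraries. It passed for 4 genes at 1 h, all higher (10% of loci higher and 7.14% lower), for 3 higher and 3 lower at 3 h (16.8% and 9.13%), for 25 higher and 0 lower at 6 h (16.4% and 11.6%), for 27 higher and 0 lower at 12 h (13.6% and 10.5%), and for 11 higher and 1 lower at 24 h (14.4% and 15.7%). At 12 h the 27 comprised 18 core and 9 regulatory genes. PAD1, an alpha subunit, had 126.6, 171.2 and 139.3 in citral shoots at 12 h, against 85.63, 85.52 and, in the shallow library, 67.09 in ethanol shoots. In roots it had 104.6, 97.96 and 98.67 with citral, against 101.4, 99.68 and 97.78 with ethanol. The groups were apart in shoots and overlapped in roots, and the difference was 0.80 (SE 0.119, limma adjusted p = 7.61e-07). RPN12A, a lid subunit, had 94.98, 109.5 and 96.17 in citral shoots, against 67.96, 66.01 and, in the shallow library, 164.7 in ethanol shoots, and 97.71, 97.67 and 109.2 in citral roots, against 107.7, 108.0 and 106.5 in ethanol roots (0.68, SE 0.104, limma adjusted p = 1.14e-06). Its shoot groups were apart only when the shallow library was set aside, and with that library in, the call was lost without library weights (0.455) and with limma-trend (0.227). RPT4A at 24 h was the 1 gene that was lower, with 35.70, 36.04 and 48.66 in citral shoots, against 45.70, 65.02 and, in the shallow library, 58.83 in ethanol shoots, and 68.65, 62.21 and 62.78 in citral roots, against 63.43, 59.83 and 67.21 in ethanol roots (-0.67, SE 0.153, limma adjusted p = 0.000496). Its call was lost without ethanol shoots replicate 2, without library weights and with limma-trend. The 1 h count was 2 without ethanol shoots replicate 2, citral shoots replicate 1 or ethanol roots replicate 1 or 2. The 24 h count was 4 without ethanol shoots replicate 1 and 1 without ethanol shoots replicate 2, and the 3 h count was 0 without ethanol roots replicate 2 or 3 and 3 without ethanol roots replicate 1, ethanol shoots replicate 2 or citral shoots replicate 3. Without library weights the count was 9 at 6 h and 7 at 12 h, and 25 and 26 once the shallow libraries were also left out. With limma-trend it was 0 at 1 and 3 h, 1 at 6 h, 21 at 12 h and 1 at 24 h, and without the shallow libraries 2, 3, 24, 24 and 15.

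Several genes that act beside the subunits were already higher at 1 h. NAC053 (AT3G10500, whose product is NAC53) was higher at every time in both organs, by 3.71, 4.15, 3.58, 1.96 and 2.27 at 1, 3, 6, 12 and 24 h in shoots and by 2.33, 2.03, 1.72, 1.68 and 0.96 in roots. At 1 h, when 0 subunit genes were higher in shoots, it had 284.8, 246.3 and 313.1 scaled CPM in citral shoots, against 22.79, 23.71 and 17.68 in ethanol shoots (SE 0.161, limma adjusted p = 5.72e-19). In roots at 1 h it had 456.1, 475.6 and 397.8 with citral, against 91.31, 92.00 and 83.77 with ethanol (SE 0.074, limma adjusted p = 2.27e-26). The groups were far apart in both organs. NAC078 (AT5G04410, RefSeq symbol NAC2) was higher at 1, 3, 6 and 24 h in shoots, by 0.81, 1.17, 1.13 and 0.46, and at 1, 3 and 6 h in roots, by 0.96, 1.10 and 0.71. In citral shoots at 1 h it had 125.6, 144.5 and 146.7, against 82.41, 78.13 and 73.72 in ethanol shoots. Its shoot call at 24 h was lost without ethanol replicate 1 or 2 or citral replicate 2 or 3. With limma-trend all 4 shoot calls of NAC078 were lost and it was called at 12 h instead, by 2.01. Once the shallow libraries were left out the 4 calls were made again, and the change at 12 h was 0.18 and not called.

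PA200, which codes for an alternative activator that caps the core particle, rose by 1.13 in shoots and 1.08 in roots at 1 h. It had 476.0, 345.2 and 441.5 in citral shoots at 3 h, against 108.7, 98.42 and 109.7 in ethanol shoots (2.04, SE 0.143, limma adjusted p = 1.79e-13), and 483.5, 466.7 and 493.4 in citral roots at 6 h, against 173.8, 161.7 and 137.5 in ethanol roots (1.63, SE 0.081, limma adjusted p = 1.51e-19). These values did not overlap. AT3G15180, which encodes an ARM repeat protein, rose by 1.08 in shoots at 3 h and by 1.47 in roots at 6 h, and AT3G53970, a proteasome inhibitor-like protein, by 1.10 in roots at 6 h. All 10 genes of the list of proteasome regulators and assembly factors were called higher at 6 h in both organs, beside 21.7% of loci in shoots and 22.9% in roots, and 4 in each organ at 1 h, beside 12.6% and 22.0%. They include AT5G38650, a maturation factor gene of UMP1 type, which was at the table's floor in the ethanol shoots at 3 h, so that no fold is given for it. This list and those below were chosen with earlier results of these data known, so their counts are not independent of those results.

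**Figure D5:**
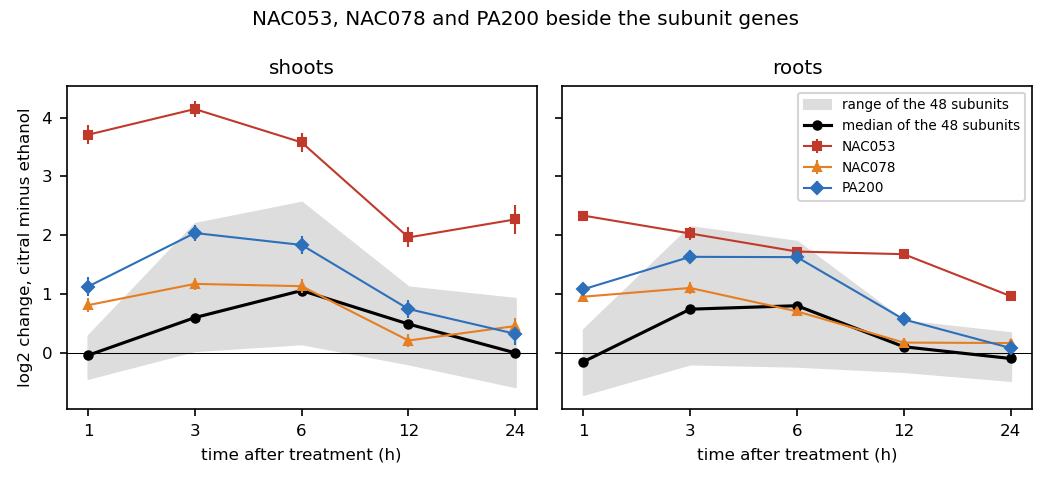
Log2 change of NAC053, NAC078 and PA200 in citral over ethanol (points with SE bars) at 1 to 24 h in shoots and roots, beside the median (black line) and the range (grey) of the 48 subunit genes. NAC053 stands at 3.71 in shoots at 1 h, where the subunit median is -0.04.

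Among 8 further genes annotated as subunits or subunit copies and not in the set, 7 passed the filter in each organ, and 6 were higher at 6 h in each, beside 21.7% of loci in shoots and 22.9% in roots, with 1 lower in roots, beside 25.7%. AT3G11270, a second RPN8 gene, had 81.07, 73.11 and 55.26 in citral shoots, against 20.59, 16.59 and 20.84 in ethanol shoots (1.76, SE 0.142, limma adjusted p = 5.54e-12), and rose by 1.42 in roots. AT4G19006, a second RPN9 gene, rose by 1.37 in shoots and 0.73 in roots. DSS1(V), a small subunit of the lid, rose by 0.79 in shoots, a call lost without library weights and with limma-trend, and by 0.54 in roots, DSS1(I) by 0.79 in shoots, and AT1G53780, a second RPT1 gene, by 0.72 in roots.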

How the data were processed

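RNA of 36 shoot and 36 root libraries was sequenced with an Illumina TruSeq kit, per the labels' protocols. The deposited values are a score: whole numbers of at least 1 per locus and library, made by the authors as reads times 1 factor per library (0.6655 to 1.311), rounded, with TMM named in the table's title. The build was TAIR10, per the submitters' processing notes; no source used here gives the aligner, the counter or the strand setting. Reads were recovered, without rounding, by dividing by the factor, which was found from the spacing of low values up to 150. In each library at least 98.72% of these low values were ones that whole reads times the factor can give. With a factor of 1 or less every value meets this, so the share tests nothing there. The floor was read as 0.5 reads.

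Recovered reads were filtered (1 CPM in at least 3 libraries), scaled by TMM and tested with limma 3.58.1 (R 4.3.3; voom with library quality weights, robust), with Benjamini-Hochberg adjustment over all loci and a threshold of 0.05. Each organ was fitted by itself with 12 groups; the untreated organ contrast and the organ difference used all 24 groups. Means, SDs and the tests of paralog ratios leave out the 4 libraries under 0.5 M reads. Paralog ratios used 0.5 reads as pseudocount and exact permutation within times, over 800000 relabellings in shoots and 1600000 in roots. Sequences and gene positions come from RefSeq TAIR10.1 by locus; the tests used no coordinates. Scripts were tested on simulated data.

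The members and lists were chosen with earlier results of these data known. Values per library are given for the members with the smallest p in each class and organ, the 3 paralog pairs with the smallest p in each organ, members called against the rest of a comparison, and the extremes of the organ contrasts; list genes are the 4 with the smallest p. 1 gene of these lists is not reported here. Statements on RPN10, RPN13, PBA1, PAC1, PAA1 and RPN9A were added after their values were seen. Alternatives tried were the authors' scaling, no weights, no filter, limma-trend with 0.5 or 0.1 CPM added, and leaving out libraries.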

Additional observations from a re-analysis of the deposited data

Results flagged for a closer look

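The citral response of the subunit genes differed between shoots and roots, by a test of the difference itself, for 4 genes at 1 h, 6 at 3 h, 25 at 6 h, 27 at 12 h and 12 at 24 h. PAD1 at 12 h had a shoot minus root difference of 0.80, with 145.7 ± 22.9 scaled CPM in citral shoots (SD, n = 3), against 85.57 ± 0.0751 in ethanol shoots (SD, n = 2), and 100.4 ± 3.63 in citral roots, against 99.63 ± 1.82 in ethanol roots (SD, n = 3 each). RPN12A at 12 h had a difference of 0.68, with 100.2 ± 8.05 in citral shoots (SD, n = 3), against 66.99 ± 1.38 in ethanol shoots (SD, n = 2), and 101.5 ± 6.63 in citral roots, against 107.4 ± 0.787 in ethanol roots (SD, n = 3 each). RPT4A at 24 h had a difference of -0.67, with 40.13 ± 7.38 in citral shoots (SD, n = 3), against 55.36 ± 13.7 in ethanol shoots (SD, n = 2), and 64.55 ± 3.56 in citral roots, against 63.49 ± 3.69 in ethanol roots (SD, n = 3 each). The part played by depth, which is lower in citral than in most control libraries of both organs, was not tested.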

How the results depend on the processing

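No change of a gene followed through the alternatives reversed its sign. Counts of called genes and pairs carry no sign and could not reverse. The filter on low values changed no count by over 1.5 times. With the authors' scaling the count of called subunit genes was 6 in shoots at 1 h, 25 in roots at 24 h, 4 in roots at 0 h, and 2 and 11 for the organ difference at 1 and 3 h. Without library weights it was 0, 22, 17 and 1 in shoots at 1, 3, 12 and 24 h, 0 at 0 h in each organ, 27 for untreated shoots against roots, 0, 0, 9, 7 and 1 for the organ difference at 1, 3, 6, 12 and 24 h, and 7 for shoot ethanol over time. With limma-trend at 0.5 CPM (at 0.1 CPM in parentheses) it was 0 (0), 11 (11), 26 (24) and 1 (1) in shoots at 1, 3, 6 and 24 h, 0 (0) in shoots and 1 (1) in roots at 0 h, 10 (10), 12 (12) and 9 (9) in roots at 1, 12 and 24 h, 15 (15) for untreated shoots against roots, 0 (0), 0 (0), 1 (1) and 1 (1) for the organ difference at 1, 3, 6 and 24 h, and 6 (5) for shoot ethanol over time. Without the libraries under 0.5 M reads 4 genes were called in shoots at 0 h. Chosen after seeing the data, no weights without those libraries gave 0 in shoots and 1 in roots at 0 h, and limma-trend without them gave 0 and 0 at 0 h, 2 and 3 for the organ difference at 1 and 3 h, and 16 and 19 for ethanol over time in shoots and roots; 43 and 42 genes were then called in shoots at 3 h, and 47 under each at 6 h. Leaving out each replicate in turn gave, at 1, 3, 6, 12 and 24 h, 0 to 2, 39 to 44, 46 to 47, 2 to 33 and 1 to 11 genes in shoots and 8 to 17, 38 to 43, 44 to 46, 16 to 23 and 7 to 16 in roots. It gave 0 to 3 in shoots and 0 to 1 in roots at 0 h, 32 to 43 for the untreated organs, 2 to 5, 0 to 7, 18 to 30, 18 to 28 and 1 to 12 for the organ difference, 16 to 27 and 1 to 40 for shoot and root ethanol over time, and 9 to 10 and 11 to 13 paralog pairs. Apart from values that name the shallow libraries, the cause of these shifts was not tested. The share of all loci called was not counted under any alternative. No paired analysis was possible because the replicate numbers only follow the order of deposition. The planned edgeR fit was not run, since the deposited values are not counts. The lowest number of reads of a subunit gene in a library was 26.4 in citral shoots, against 30.7 in ethanol shoots of over 0.5 M reads, and 31.7 in citral roots, against 69.3 in such ethanol roots; what this limits was not tested.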

Other observations

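Ubiquitin genes were higher in part from 1 h on. Of 12 genes for polyubiquitin, ubiquitin-activating and ubiquitin-conjugating enzymes, 10 rose and 1 fell in roots at 1 h, where 22.0% of all loci were higher and 21.1% lower, and 5 rose and 1 fell in shoots, beside 12.6% and 7.92%. At 3 h 7 rose and 1 fell in shoots (23.6% and 26.7% of loci) and 8 rose and 2 fell in roots (21.4% and 25.9%). At 6 h 8 rose and 1 fell in shoots (21.7% and 19.8%) and 9 rose and 2 fell in roots (22.9% and 25.7%). No test set this list against the subunits. The polyubiquitin gene UBQ3 had 3819, 3771 and 3410 scaled CPM in citral roots at 1 h, against 1250, 1029 and 932.9 in ethanol roots (1.87, SE 0.063, limma adjusted p = 2.13e-25). UBQ14 rose there by 1.79 and UBQ11 by 1.27, and UBC11, a conjugating enzyme gene, by 1.32. In shoots at 6 h UBC11 rose by 1.85, UBQ3 by 0.90, and the activating enzyme genes UBA1 and UBA2 by 0.41 each. Polyubiquitin genes share repeated sequence, so the split of reads among them is uncertain.

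Of 15 genes for ubiquitin shuttles, CDC48-type ATPases and deubiquitinases, 9 rose and 1 fell in shoots at 6 h, beside 21.7% of loci higher and 19.8% lower, and 8 rose and 3 fell in roots, beside 22.9% and 25.7%. AtCDC48B (AT3G53230), of the ATPase family that extracts ubiquitinated proteins, had 312.0, 284.9 and 314.5 in citral roots at 6 h, against 43.69, 57.77 and 66.36 in ethanol roots (2.42, SE 0.116, limma adjusted p = 3.61e-18). It rose in shoots by 3.48 at 3 h. CDC48 (AT3G09840) had 1226, 1049 and 1167 in citral shoots at 3 h, against 388.1, 395.9 and 374.6 in ethanol shoots (1.58, SE 0.092, limma adjusted p = 6.83e-16), and rose by 1.19 in roots at 6 h. UBP6, a deubiquitinase that docks on the proteasome, rose by 1.37 in shoots at 3 h and 0.66 in roots at 6 h, and the shuttle gene DSK2A by 0.81 in roots at 6 h. The shoot calls of UBP6 at 3 h and of UBQ3 and UBA2 at 6 h were lost with limma-trend and made again without the 4 shallow libraries.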
